A study of Mus musculus with 189 samples.

Results

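Single cells were sorted from the dentate gyrus of young mice, and 109 of them, described here, carry a number on a pseudotime axis that the authors computed. Pseudotime orders cells along a path by the likeness of their transcripts. Here it runs from 0 in cells of the cluster the authors named a1, through q1, to 49.99 in q2. All 109 columns with a pseudotime were taken (45 cells of a1, 45 of q1 and 19 of q2), and the other 80 cells of the series have none. The authors built the axis from these same cells' transcripts, so every trend along it is a description and carries no test.

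All cells came from C57BL/6 mice with a Hopx-GFP reporter and were captured by fluorescence-activated sorting at postnatal day 3 (P3), 7 (P7) or 14 (P14). No treatment was given in the labels and the mice were not named, so each age is a single sample and differences between cells cannot be assigned to animals. The ordered cells comprise 55 of the 72 cells at P3, 25 of 54 at P7 and 29 of 63 at P14, and library numbers run in separate blocks per age, so age and preparation cannot be told apart. The labels call the cells qNSCs, which series text spells out as quiescent neural stem cells.

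Neural stem cells of the dentate gyrus are radial, astrocyte-like cells that produce granule neurons through dividing intermediate progenitors. Most of them leave the cell cycle in the first weeks after birth and persist in quiescence, a reversible resting state. Quiescent stem cells share many transcripts with astrocytes, such as those for glutamate uptake, lipid carriage and metal binding. Cells that leave quiescence make more ribosomes, replicate DNA and divide.

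The axis was filled in bunches. The largest stretch without a cell ran from 37.79 to 47.46, and others ran from 5.01 to 11.10 and from 28.64 to 32.64. Levels were therefore compared across 5 intervals: 24 cells at 0 to 10, all of a1; 33 at 10 to 30, with 20 of a1 and 13 of q1; 27 at 30 to 40, with 26 of q1; 5 at 40 to 48; and 20 above 48, with 18 of q2. The interval from 40 to 48 holds only 5 cells. The median P3 cell stood at pseudotime 18.99, the median P7 cell at 33.18 and the median P14 cell at 48.32. Of the P14 cells 19 lay past 40, against 3 at P3 and 3 at P7, so the end of the axis is mostly P14 cells.

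**Figure D1:**
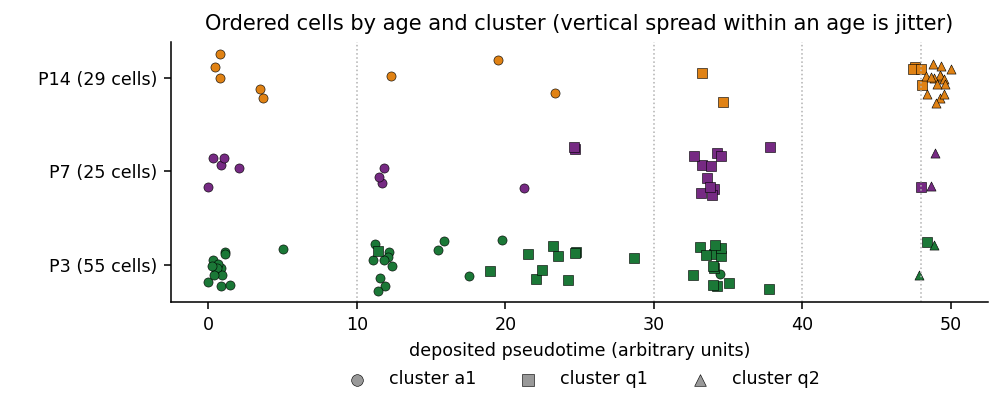
Each of the 109 cells placed by its deposited pseudotime (x axis, arbitrary units), in a row for its age; symbols give the authors' cluster and dotted lines the interval borders at 10, 30, 40 and 48. Cells bunch near 0, 12, 34 and 48, and 19 of the 29 P14 cells lie past 40.

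Levels are log2(CPM + 1), where CPM is the estimated read count of a gene per 1000000 counted in that cell, and 0 means no read. The median cell had 170957 counts in the first interval and 268401 in the last, while the median number of genes above 1 CPM fell from 3013 to 1971. The rank correlation (Spearman's rho, over 109 cells) of the number of detected genes with pseudotime was -0.43, that of total counts 0.08 and that of the mitochondrial share 0.33; the median mitochondrial share was 2.59% in the first interval and 5.72% in the last. The number of detected genes thus fell with the transcripts below. With that number held, 98.6% of the 74 genes with rho of at least 0.4 and 63.1% of the 260 with rho of at most -0.4 stayed past those limits. Globin transcripts were above 1 CPM in 17 cells, 7 of them in the last interval; without these cells, an alternative added after seeing the data, 93.2% of the 74 and 82.7% of the 260 stayed past the limits. Markers of other cell types had few entries in the table used here. The single microglial entry was above 1 CPM in 10 cells, the single endothelial one in 16 and the single Cajal-Retzius one in 3, oligodendrocyte lineage markers (5 entries) in 36, ependymal markers (5 entries) in 9 and mural markers (3 entries) in 48. The median summed level was 0 CPM in every interval for these lists, except 2.89 CPM for the oligodendrocyte lineage above 48 and, for mural markers, 96.2 CPM at 10 to 30 and a higher value at 30 to 40; their part in the results was not tested.

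The start of the axis held cells with transcripts of the neuronal lineage. Each of the 24 cells at 0 to 10 had at least 3 of 12 intermediate progenitor markers above 1 CPM, against 13 of 33 cells at 10 to 30, 4 of 27 at 30 to 40, 3 of 5 at 40 to 48 and 1 of 20 above 48. Sox11, a transcription factor of newborn neurons, was found in all 24 cells of the first interval. Eomes, which marks intermediate progenitors, was found in 15 of them (62.5%, exact 95% interval 40.6 to 81.2%), and Dcx, a microtubule protein of neuroblasts, in 13 (54.2%, 32.8 to 74.4%). Hopx itself, a small homeodomain protein whose reporter was used in the sort, was found in 8 of these 24 cells (33.3%, 15.6 to 55.3%). The label of quiescent stem cells therefore did not match the markers of the cells near 0, while 25 of 27 cells at 30 to 40 and 17 of 20 above 48 had Hopx. These intervals cover counting error over cells only, and reads carry no molecular identifiers.

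The 4 genes named as markers of the ordered cells were Hopx (chr5:77086988-77115121), Apoe (chr7:19696109-19699188), Fam107a (chr14:8296274-8318023) and Pcna (chr2:132249162-132253314), in GRCm38 coordinates of protein-coding genes. Over all ages together, the positions of their changes differed. The position of change given below is the pseudotime of the single step that best splits a gene's levels, with at least 10 cells on each side. No step can therefore lie before 0.72 or after 48.96. A step at either value is a limit of the search and not a located change.

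Hopx was at 0 (lowest), 0 (median) and 9.06 (highest) in the 24 cells at 0 to 10, at 0, 6.22 and 9.58 at 10 to 30, at 0, 7.04 and 10.41 at 30 to 40, and at 0, 7.0 and 9.56 above 48. The ranges overlap in every interval, and cells without Hopx are the common state only near 0. Its mean went from 2.36 ± 3.51 (SD, n = 24 cells) to 5.64 ± 3.09 (n = 33) and 6.53 ± 2.43 (n = 27), with the step at 1.74. Its rho was 0.36 and fell short of 0.4. Within the first interval Hopx was above 1 CPM in 2 of 14 P3 cells, 2 of 5 P7 cells and 4 of 5 P14 cells. Within single ages its rho was 0.49 (P3), 0.41 (P7) and 0.04 (P14). The P14 means were 5.98 at 0 to 10 and 3.95 at 10 to 30, so the early step was not seen at P14. The Hopx counts cannot be separated from a transcript of the opposite strand, since the sources used here do not say whether counting used strand.

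Apoe, the apolipoprotein that astrocytes and quiescent stem cells secrete to carry lipids, came later. It was at 0, 0 and 8.53 (lowest, median, highest) at 0 to 10 and at 0, 0 and 10.17 at 10 to 30, but at 3.81, 9.30 and 11.37 at 30 to 40 and at 0, 10.16 and 13.03 above 48. The share of cells above 1 CPM went from 20.8% (7.13 to 42.2%) and 42.4% (25.5 to 60.8%) to 100% of 27 cells (87.2 to 100%). The step lay at 23.27, where a1 gives way to q1, and rho was 0.70. Taken within one age at a time it was 0.63 (P3), 0.77 (P7) and 0.60 (P14).

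Fam107a, an actin-associated protein enriched in astrocytes and radial glia, came last. It was at 0 in the median cell of every interval up to 48 and at 0, 7.13 and 10.46 (lowest, median, highest) above 48, where 14 of 20 cells had it (exact interval 45.7 to 88.1%). The share was 4.17% (0.105 to 21.1%) at 0 to 10, 9.09% at 10 to 30 and 22.2% (8.62 to 42.3%) at 30 to 40, with the step at 47.96 and rho 0.52. Age moved with this gene. Fam107a was above 1 CPM in 0 of 14 P3 cells, 4 of 11 P7 cells and both P14 cells at 30 to 40, and in 2 of 3 P14 cells against 1 of 24 P3 cells at 10 to 30. Above 48 it was found in 13 of 16 P14 cells, 1 of 2 P3 cells and neither P7 cell. Within single ages its rho was 0.21 (P3), 0.28 (P7) and 0.38 (P14), so position and age cannot be told apart for the late rise of Fam107a.

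Pcna, the sliding clamp of DNA polymerase, fell along the axis (rho -0.45). Its lowest, median and highest levels were 0, 8.84 and 11.87 at 0 to 10, 0, 7.99 and 12.60 at 10 to 30, 0, 4.56 and 10.33 at 30 to 40, and 0, 0 and 10.24 above 48. Cells without Pcna occurred in every interval, and the share with it went from 70.8% and 66.7% to 59.3% and then 2 of 20 cells (1.23 to 31.7%). The means were 6.74 ± 4.78, 6.16 ± 4.92, 4.34 ± 4.08 and 0.79 ± 2.55. The best step was at 16.70, yet most of the fall in the mean, -3.55 of log2(CPM + 1), came between the intervals 30 to 40 and above 48. Mean CPM was 909, 1124, 219 and 62.8 in the same intervals, so on that scale the largest drop came between 10 to 30 and 30 to 40. Within single ages rho was -0.24 (P3), -0.47 (P7) and -0.61 (P14).

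**Figure D2:**
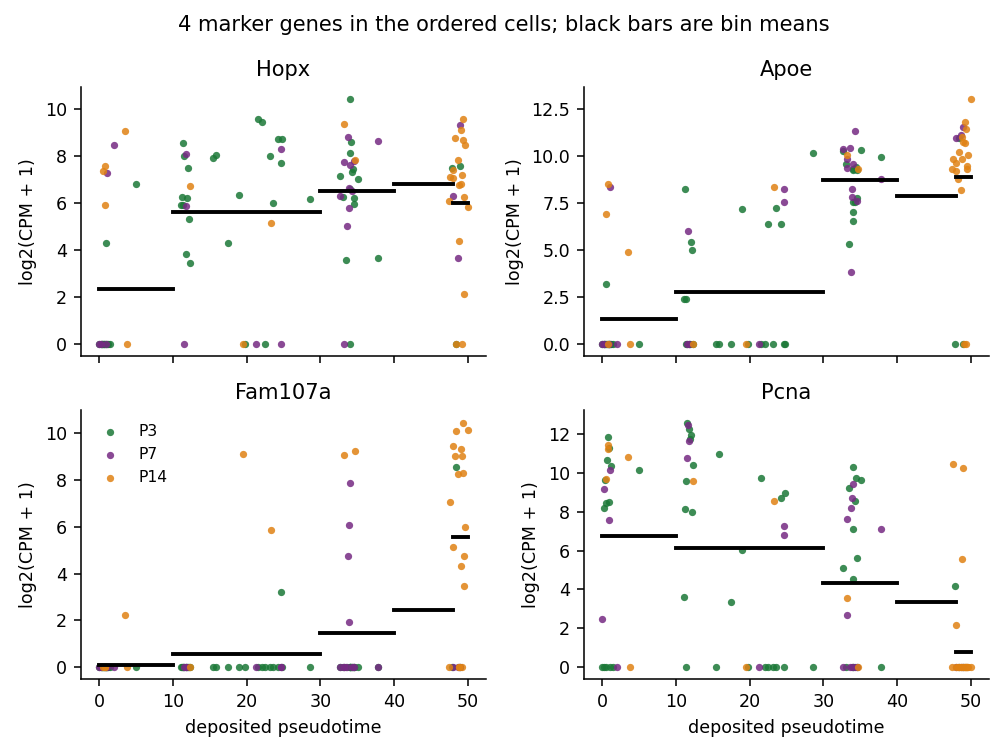
Level of Hopx, Apoe, Fam107a and Pcna, as log2(CPM + 1) on the y axis, in each of the 109 cells against deposited pseudotime; colours give the age and black bars the interval means. Over all ages together the best step lies near 2 for Hopx, near 23 for Apoe and near 48 for Fam107a, while Pcna is under 1 CPM in 18 of the 20 cells above 48.

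Most cells with Fam107a had Apoe, and not the reverse. Among ordered cells Apoe was above 1 CPM in 22 of 26 cells with Fam107a (84.6%, 65.1 to 95.6%), whereas Fam107a was in 22 of 67 cells with Apoe (32.8%, 21.8 to 45.4%). Of the 67 cells with Apoe, 59 had Hopx (88.1%, 77.8 to 94.7%). The 80 cells outside the ordering gave 29 of 31 (93.5%, 78.6 to 99.2%) and 29 of 60 (48.3%, 35.2 to 61.6%) for the first 2 shares, so there too most cells with Fam107a had Apoe. These 80 cells did not enter the axis. Apoe was itself the more common transcript, above 1 CPM in 67 of the 109 ordered cells and 60 of the 80 others. Above 48, where 14 of 20 cells had Fam107a, 17 of 20 had Apoe. Whether the 2 genes go together beyond their shared place on the axis was not tested. Pcna was above 1 CPM in 9 of the 26 ordered cells with Fam107a (34.6%, 17.2 to 55.7%) and in 34 of the 67 with Apoe (50.7%, 38.2 to 63.2%).

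Across the transcriptome 4295 genes were above 1 CPM in at least 20% of the ordered cells. Of these, 74 (1.72%) had rho of at least 0.4 and are said here to rise, and 260 (6.05%) had rho of at most -0.4 and are said to fall. The median rho of all 4295 was -0.10. Bcan, at 0.401, was the last gene inside the upper limit and Dag1, at 0.399, the next outside; Cops4 was the last inside the lower limit and Eif3h, at -0.399, the next outside. Every rising gene had a positive rho within each of the 3 ages, and 259 of the 260 falling genes had a negative rho within each. The axis was built from all ages together, so this is no independent check. Without the 45 cells that had 3 or more intermediate progenitor markers, an alternative chosen after seeing the data, 29 genes rose and 234 fell; 28.4% of the 74 and 51.2% of the 260 stayed past the limits. Without the 45 cells of a1, 22 genes rose and 3.80% of the measured genes fell, and 12 of the 74 and 79 of the 260 stayed. Without q2 2.82% rose and 3.96% fell.

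Rising and falling genes changed at different places. For 70 of the 74 rising genes the larger part of the change lay between 0 to 10 and 30 to 40, with a median gain of 4.45 log2 units, followed by 0.09 between 30 to 40 and above 48. Their steps lay before 10 for 18 genes, between 10 and 30 for 46, between 30 and 40 for 9, and past 40 for Fam107a alone. Falling genes split: 56.9% of the 260 lost more before the interval 30 to 40 and 43.1% after it. Their steps lay before 10 for 16 genes, between 10 and 30 for 110, between 30 and 40 for 46, and past 40 for 88. Over all 4295 genes the median change was -0.12 in the earlier part and -0.94 in the later part, so the later fall is shared widely and goes with the drop in detected genes. With the P14 cells left out too few cells remain past 40 to place a step there.

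**Figure D3:**
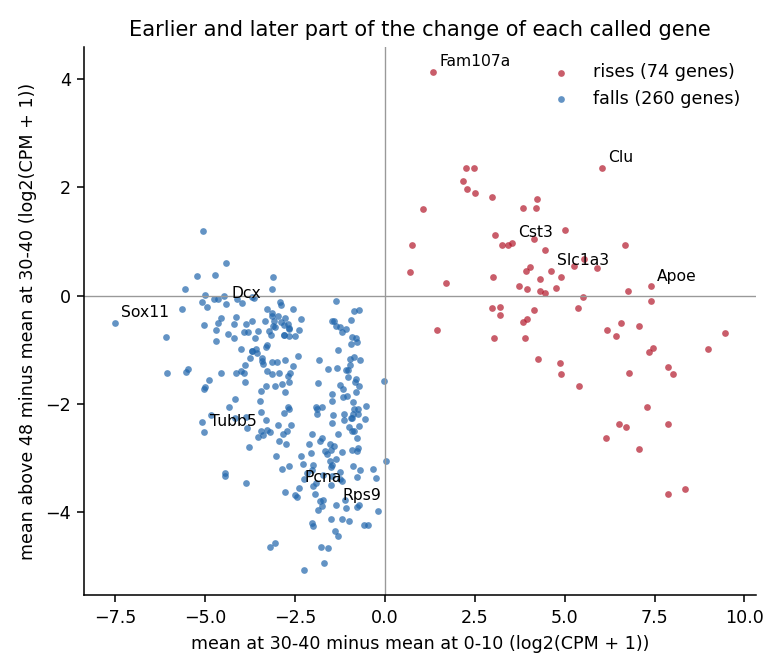
Each rising (74, red) and falling (260, blue) gene by the change in its mean from 0 to 10 to 30 to 40 (x axis) and from 30 to 40 to above 48 (y axis), both in log2(CPM + 1). Most rising genes lie far to the right and near 0 on the y axis, Fam107a lies high on the y axis, and falling genes spread from an early group near Dcx and Sox11 to a late group near Rps9.

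The genes with the highest rho included Cst3 (0.77), Slc1a3 (0.72), Ptprz1 (0.70), Apoe (0.70), Gpm6a (0.68), Sparcl1 (0.67), Mt1 (0.65), Clu, Mt3, Tspan7, Itm2b and Dbi (0.64 each), and Gstm1 and S1pr1 (0.61 each). Cst3, a secreted inhibitor of cysteine proteases, was at 0, 9.16 and 12.10 (lowest, median, highest) at 0 to 10 and at 10.66, 13.72 and 14.93 above 48. The ranges overlap, but the lowest cell above 48 exceeded the median cell at 0 to 10. Slc1a3, the glutamate transporter GLAST of radial glia and astrocytes, was at 0, 7.94 and 11.90 at 0 to 10, and at 10.53, 12.14 and 13.82 already at 30 to 40. Sparcl1, a secreted matrix protein, went from a median of 0 at 0 to 10 to 8.45 at 10 to 30 and 10.93 at 30 to 40, where every cell had it.

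The earliest steps among rising genes belonged to Dbi, Dclk1, Sox9, Qk, Ptprz1 and Plpp3, all before pseudotime 10. That of Dbi, at 0.72, lies at the search limit. Dbi, an acyl-CoA binding protein, was at 2.42, 11.40 and 13.39 (lowest, median, highest) at 0 to 10 and at 11.49, 13.36 and 14.55 at 10 to 30, so it was present in every cell and its lower levels were confined to the start. Sox9, a transcription factor that specifies radial glia and astrocytes, was found in 19 of 24 cells at 0 to 10 and in all 33 at 10 to 30. Ptprz1, a receptor phosphatase of radial glia, had medians of 6.54, 10.68 and 11.52 in the first 3 intervals.

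The latest steps among rising genes belonged to Fam107a, Lgr4, Hspa2, Clu, Fxyd1 and Ntrk2. Lgr4, a receptor for R-spondins that strengthens Wnt signalling, had a median of 0 up to pseudotime 40 and of 5.32 above 48, where 16 of 20 cells had it. Clu, the chaperone-like apolipoprotein clusterin, had medians of 0, 3.76, 7.30 and 10.76 at 0 to 10, 10 to 30, 30 to 40 and above 48. Its mean rose by 6.04 in the earlier part and 2.36 in the later part, and its rho was positive in each age (P3 0.38, P7 0.65, P14 0.69). Ntrk2, the receptor for brain-derived neurotrophic factor, had means of 1.91, 3.21, 6.13 and 7.91 in the same intervals, with rho of only 0.14 at P3. Fxyd1, a regulator of the sodium pump, had a mean of 0.00 at 0 to 10 and at 10 to 30. It was 3.05 at 30 to 40, where 11 of 27 cells had Fxyd1, and 4.15 above 48. Age moved with these late genes too. With age held, rho was 0.58 for Clu, 0.45 for Fxyd1, 0.40 for Lgr4 (just under the limit), 0.38 for Ntrk2, 0.35 for Fam107a and 0.29 for Hspa2. Without P14 cells Clu (0.50) alone of the 6 stayed past 0.4, with Fxyd1 at 0.39, Ntrk2 at 0.35, Lgr4 at 0.34, Hspa2 at 0.27 and Fam107a at 0.25.

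**Figure D4:**
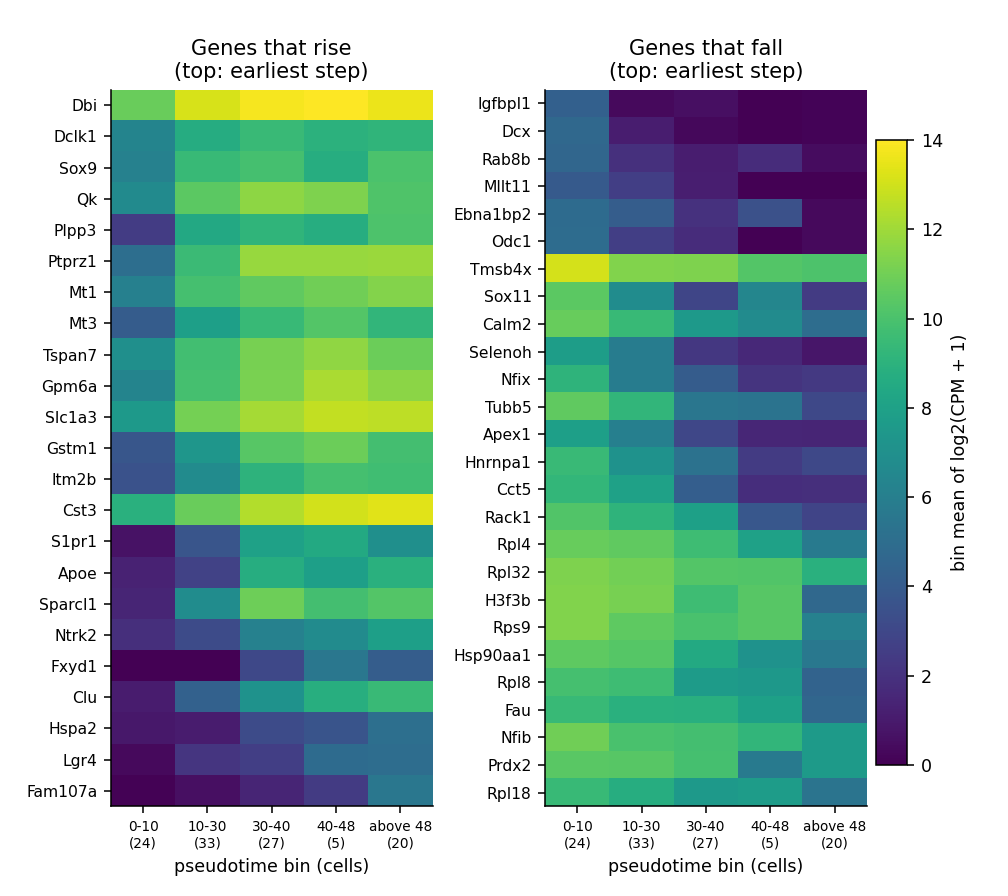
Interval means (log2(CPM + 1), colour) of the named rising genes (left) and falling genes (right), each panel ordered from the earliest step at the top to the latest at the bottom, with cell numbers under the intervals. Rising genes from Dbi to Sparcl1 are near their final level by 30 to 40 and Fam107a only above 48, while the falling genes go from Igfbpl1 and Dcx, low from 10 on, to ribosomal protein genes, high up to 48.

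Most quiescent stem cell markers rose, and under 50% of the neural stem cell markers. The lists were drawn up with earlier results of these data known, so their counts are no independent evidence of direction. Of 19 measured quiescent stem cell markers 15 rose and none fell, with a median rho of 0.56 (0.31 without a1, 0.35 without the progenitor-marked cells); among them were the metallothioneins Mt1 (0.65), Mt2 (0.48) and Mt3 (0.64), which bind zinc and copper, and Id3 (0.41) and Id4 (0.56), inhibitors of proneural transcription factors. Ndrg2 (0.19), Id2 (0.15), Acsl3 (0.30) and Ntsr2 (0.34) did not reach 0.4. Of 17 neural stem cell markers 8 rose, led by Slc1a3 and Ptprz1. Vim (0.02), Sox2 (0.08) and Nr2e1 (0.01) had no such trend. Fabp7, a carrier of fatty acids in radial glia, rose to a median of 15.55 at 30 to 40 and was at 12.89 above 48.

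Genes for ion and glutamate handling rose together. Of 14 measured members of the list of astrocyte-type transport 11 rose and none fell (median rho 0.54; 0.19 without a1 and 0.29 without the progenitor-marked cells). They included Slc1a2 (0.60) and Slc1a3, which clear glutamate, Glul (0.57), which converts it to glutamine, the sodium pump subunit Atp1b2 (0.58), the gap junction protein Gja1 (0.60) and the water channel Aqp4 (0.50). Steps of Glul, Slc1a2 and Aqp4 lay between 24 and 25, those of Gja1 and Atp1b2 between 21 and 24. Of 9 astrocyte markers 4 rose. Of 20 adhesion and matrix genes 5 rose, among them Tnc (0.41) and Ntm (0.55). Of 13 lipid carriers 5 rose, and no member of these lists fell. Of 10 measured members of a receptor list 3 rose and none fell: S1pr1, a receptor for sphingosine-1-phosphate, Gpr37l1 (0.51), an astrocyte receptor, and Ednrb (0.40), an endothelin receptor.

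Among genes with mostly whole-number values, the lowest rho were those of Tubb5 (-0.72), Sox11 (-0.70), Rack1 (-0.69), H3f3b (-0.66), Rpl32 (-0.65), Nfix (-0.65), Hnrnpa1 (-0.64), Rpl4 and Tmsb4x (-0.63 each), Rps9, Calm2 and Cct5 (-0.62 each), Apex1 and Selenoh (-0.61 each) and Hsp90aa1 (-0.60). Tubb5, a tubulin of dividing and migrating cells, was at 1.45, 11.03 and 12.73 (lowest, median, highest) at 0 to 10, at 0, 6.16 and 10.56 at 30 to 40, and at 0, 1.76 and 8.65 above 48. Sox11 was at 6.26, 10.89 and 13.10 at 0 to 10, at 0, 8.04 and 11.89 at 10 to 30, and at 0, 2.87 and 9.09 at 30 to 40. The lowest cell at 0 to 10 thus exceeded the median cell at 30 to 40. In all, 43.8% of the 260 falling genes had whole-number values in under 50% of cells with reads, which can mark genes whose reads were shared with near-identical copies, and these were passed over when genes were chosen by rank.

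The earliest steps among falling genes belonged to Igfbpl1, Dcx, Rab8b, Mllt11, Ebna1bp2 and Odc1, of which Igfbpl1 and Dcx are neuronal lineage markers. Those of Igfbpl1, Dcx and Rab8b lie at the search limit of 0.72, and those of Mllt11 (0.78), Ebna1bp2 (0.84) and Odc1 (0.86) close to it. Ebna1bp2 fell gradually, being in 16 of 24 cells at 0 to 10, 20 of 33 at 10 to 30, 9 of 27 at 30 to 40 and 1 of 20 above 48. Mllt11 was in 12, 12, 6 and 0 cells of the same intervals. Igfbpl1, a marker of early neuronal progeny, was above 1 CPM in 16 of 24 cells at 0 to 10, in 2 of 33 at 10 to 30 (6.06%, 0.743 to 20.2%) and in 1 of 20 above 48. Dcx was in 13 of 24 cells, then in 6 of 33 and 2 of 27, and Eomes in 15 of 24, then 4 of 33 and 2 of 27. Of 7 measured intermediate progenitor markers 5 fell (Sox11, Igfbpl1, Eomes, Neurog2 and Elavl2; median rho -0.43), and Sox11, with its step at 21.39, was still in 29 of 33 cells at 10 to 30. Of the neuroblast markers Dcx alone fell, out of 3 measured.

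Nuclear factor I genes fell at different places. Nfix, which promotes neuronal differentiation and stem cell quiescence, had medians of 9.59, 7.06, 3.81 and 0 at 0 to 10, 10 to 30, 30 to 40 and above 48. Nfib, its relative, had medians of 10.96, 10.21, 10.13 and 9.36, with 3 of 20 cells without it above 48. Its step, at 48.96, lies at the search limit. Nfia had a rho of -0.17. Sox4 (-0.44) and Tcf4 (-0.47) also fell, and Sox9 and Npas3 (0.45) rose, out of 22 measured transcription factors of the lineage.

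Cell cycle transcripts dropped most between the intervals 10 to 30 and 30 to 40. Of 18 measured genes of DNA replication and the G1/S transition 12 fell and none rose (median rho -0.42), and of 12 mitosis genes 5 fell and none rose (median rho -0.39). The mean of the replication list was 4.11 at 0 to 10, 3.06 at 10 to 30, 0.93 at 30 to 40 and 0.50 above 48, and that of the mitosis list 3.59, 3.42, 0.78 and 0.28. Mcm6, a subunit of the replicative helicase, was found in 18 of 24 cells, 14 of 33, 2 of 27 and 3 of 20. Mki67, a coat protein of mitotic chromosomes, was found in 14 of 24, 14 of 33, 5 of 27 and 1 of 20 cells. Uhrf1, which carries DNA methylation through replication, and Ube2c, a ubiquitin-conjugating enzyme of mitotic exit, were found in none of the 20 cells above 48, which allows up to 15% of cells with a read each (3 cells of 20). Cells with at least 3 of 10 cycling genes made up 58.3% (14 of 24), 48.5% (16 of 33), 14.8% (4 of 27) and 0% of the cells. Leaving them out brought the median rho of the mitosis list to -0.12 and that of the replication list to -0.31, while that of the quiescent stem cell markers was 0.47. Without a1 the medians were -0.06 for mitosis and -0.13 for replication.

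Since these genes moved together, their promoters were read for short motifs known to bind cell cycle factors: TTTCCCGC, TTTGGCGC and TTCCCGC, forms of the E2F site (the first contains the last), and TTTGAA, the cell cycle homology region of mitotic genes, each on both strands. Promoters are RefSeq windows in GRCm38.p6, 250 bases before to 50 after each start. They matched 15 of the 18 replication genes (19 promoters), 11 of the 12 mitosis genes (12 promoters), 15 of the 19 quiescent stem cell markers (22 promoters) and 3110 of the 4295 measured genes (3978 promoters). The following windows are from falling genes and lie wholly before the start, 5′ to 3′ on the gene's strand, with the motif in capitals; a motif on the opposite strand appears as its reverse complement.
Mcm6 (chr1:128359788-128359835, minus strand): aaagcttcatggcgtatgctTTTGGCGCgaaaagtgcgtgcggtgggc
Mcm7 (chr5:138172021-138172068, minus strand): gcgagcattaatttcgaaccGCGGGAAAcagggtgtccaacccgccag
Uhrf1 (chr17:56303269-56303315, plus strand): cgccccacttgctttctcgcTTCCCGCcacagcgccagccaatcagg
Mki67 (chr7:135716470-135716515, minus strand): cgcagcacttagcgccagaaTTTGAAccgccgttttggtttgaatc
Ube2c (chr2:164769880-164769925, plus strand): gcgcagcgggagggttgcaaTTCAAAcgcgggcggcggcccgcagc

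The E2F motif lies in the first 3 windows and the cell cycle homology motif in the last 2. The marked motif begins 110 bases before the start of Mcm6 and 29 before that of Ube2c. The Mki67 window holds TTTGAA again near its 3′ end, there in small letters. Any of the 3 E2F motifs was in 52.6% of the replication promoters (10 of 19), 9.45% of the promoters of all measured genes and 5.06% of all 32851 promoters. In the mitosis promoters and in those of quiescent stem cell markers none of the 3 was found. TTTGAA was in 66.7% of the mitosis promoters (8 of 12), 0% of the replication promoters, 12.5% of those of measured genes and 17.9% of all. CCAAT, the site of NF-Y, was in 63.2%, 83.3%, 39.6% and 37.4% of the replication, mitosis, measured and all promoters, and in 18.2% of those of quiescent stem cell markers. The 72 promoters matched to 57 of the 74 rising genes held an E2F motif in 8.33%, and the 227 promoters of those falling genes that matched in 12.8%. A match describes these letters and is no evidence that a factor binds there.

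In means of log2(CPM + 1), ribosomal protein transcripts lost more above 48 than before. Of 32 ribosomal protein genes 26 fell and none rose (median rho -0.52), and the list mean went from 9.87 at 0 to 10 to 9.31, 8.65 and, above 48, 6.44. The median member changed by -1.04 up to 30 to 40 and by -2.36 after it. Their summed CPM went the other way, losing more before than after 30 to 40. Its medians were 54734, 40408, 28534 and, above 48, 18716. Other lists fell as late in log2 means: the median changes were -0.84 and -2.08 for cytoskeletal genes and -1.16 and -2.14 for the proteasome. Over all measured genes the median changes were -0.12 and -0.94. Median summed CPM at 0 to 10, 30 to 40 and above 48 was 38290, 18099 and 8311 for the cytoskeletal list. For the proteasome it was 10193, 6390 and 5342. The latest steps of all falling genes included Rpl18, Rpl8, Fau and Rps9, besides Nfib and the peroxidase Prdx2. Those of Rpl18, Nfib and Prdx2 lie at the search limit of 48.96. Rps9, a small subunit protein, was at 10.55, 11.46 and 12.17 (lowest, median, highest) at 0 to 10, at 7.65, 10.30 and 11.12 at 30 to 40, and at 0, 8.42 and 11.52 above 48. Every cell up to 48 had it, but 6 of the 20 cells above 48 did not. Rack1, a scaffold of the small subunit, was found in 26 of 27 cells at 30 to 40 and 9 of 20 above 48. Of 19 genes of translation and ribosome assembly 13 fell, with median changes of -2.26 before and -2.39 after, among them Ncl (-0.54), a nucleolar protein, and Eef1a1 (-0.61) and Npm1 (-0.60), an elongation factor and a nucleolar chaperone. Reads of Eef1a1 and Npm1 were shared with copies, so their values are uncertain. The fewest genes were detected in the same interval, 1971 in the median cell above 48, and the part of this in the late fall was not tested further.

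Other growth lists fell in part, while 6.05% of all measured genes fell. Of 18 chromatin genes 8 fell, led by Hmgn2 (-0.81), Ptma (-0.79) and H2afz (-0.72), a nucleosome-binding protein, a histone-binding acidic protein and a histone variant. Of 18 cytoskeletal genes 8 fell, including Stmn1 (-0.67) and Tuba1b (-0.60). Of 24 splicing genes 8 fell, such as Rbm3 (-0.66) and Srsf3 (-0.62), and of 20 chaperones 5 fell. All 7 genes just named had whole-number values in under 50% of cells with reads, so their counts may include reads of near-identical copies. Of 18 proteasome genes Psma7 (-0.57), a core subunit with whole values throughout, was the member that fell. That is near the share over all measured genes.

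Energy metabolism did not follow the ribosome. None of 31 nuclear genes of oxidative phosphorylation rose or fell, and their median rho, -0.12, was near the -0.10 of all measured genes. Of 13 transcripts of mitochondrial DNA mt-Nd4 alone rose (0.48), all 13 having a positive rho, beside the rise in mitochondrial share given above. Of 11 glycolytic genes Aldoc (0.60), the brain aldolase of astrocytes, rose and none fell. Ldha, the lactate dehydrogenase of proliferating cells, had means of 3.99, 7.23, 5.04 and 1.69 at 0 to 10, 10 to 30, 30 to 40 and above 48.

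Signalling lists held few measured genes. Over all measured genes 1.72% rose and 6.05% fell. Of 7 measured Notch genes Notch2 (0.43) rose. Of 10 genes of the BMP and TGF-beta pathway Id3 and Id4, targets of BMP receptors, rose. Of 9 growth factor receptors and related genes Ntrk2 and Ptn (0.53), a secreted growth factor that binds Ptprz1, rose. None of 8 Wnt genes and 3 Hedgehog genes rose or fell, which says little for lists this short at those shares. Of 14 genes for entry into the cell cycle and its inhibitors Cdk4 (-0.53), the G1 kinase, fell, near the share over all measured genes. The inhibitor Cdkn1b had a rho of 0.00.

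Some genes peaked in the middle. In 810 of 4295 genes (18.9%) the mean at 10 to 30 or 30 to 40 was at least 1 log2 unit above both ends, and in 81 (1.89%) at least 1 unit below both. Of the 810, 546 were highest at 30 to 40. Over all 4295 genes the median change from there to above 48 was -0.94, near the 1 unit asked, so the typical gene almost met that side. With a pseudocount of 10 the counts were 327 and 14. The 8 largest excesses were those of Cav1, Fos, Rgs5, Idi1, S100a16, Trappc2, Prdx5 and Abhd4, each at 30 to 40. Cav1, the coat protein of caveolae, was found in 1 of 24 cells at 0 to 10, 19 of 33 at 10 to 30, 19 of 27 at 30 to 40 and 2 of 20 above 48. Rgs5, a regulator of G protein signalling, was found in 2, 16, 15 and 2 cells of the same intervals. It also marks mural cells. Of their other markers, Pdgfrb was found in 0%, 3.03%, 11.1% and 25% of cells, and Kcnj8 is not reported here. Fos was at 0, 0 and 11.50 (lowest, median, highest) at 0 to 10, at 0, 9.93 and 11.27 at 30 to 40 and at 0, 0 and 10.89 above 48, where 7 of 20 cells had it.

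Lists without an overall trend could peak in the same interval, and 2 of them are given here, chosen after their values were seen. The mean of 7 immediate early genes, which a stimulus induces within minutes, was 2.29, 2.74, 4.28 and 1.42 at 0 to 10, 10 to 30, 30 to 40 and above 48. The mean of 14 cholesterol synthesis genes was 2.35, 3.75, 5.28 and 3.54. Median summed CPM of the cholesterol list was 1281, 3747, 5507 and 4198. From 30 to 40 to above 48 the median member changed by -2.99 (immediate early) and -1.48 (cholesterol), beside -0.94 over all measured genes. Msmo1, a sterol oxidase late in the pathway, had means of 2.54, 6.98, 8.71 and 6.50, and Idi1, an isomerase early in it, had medians of 4.32, 7.14, 9.80 and 2.19. None of the 14 rose or fell by rank correlation, and of the 7 immediate early genes Ier5 (-0.42) fell. Of 27 cells in this interval 14 were P3 and 11 P7, and only 2 P14.

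**Figure D5:**
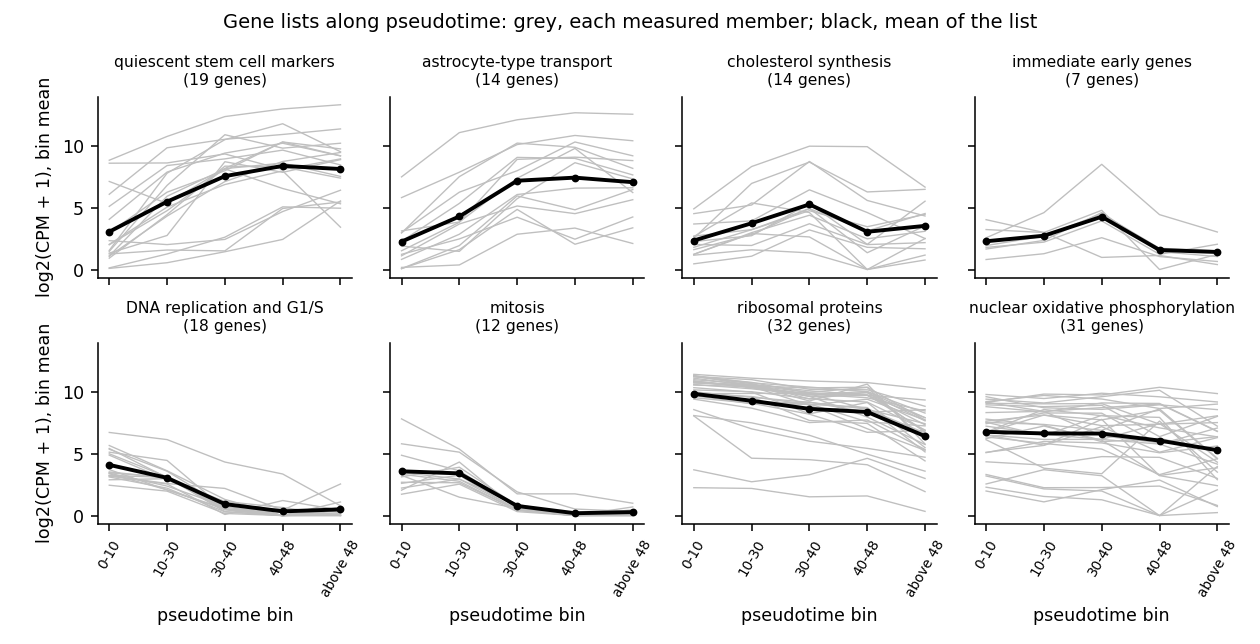
Interval means, as log2(CPM + 1), of each measured member (grey) and of the list (black) for 8 gene lists along pseudotime. The quiescent stem cell and transport lists climb to 30 to 40 and stay high, cholesterol synthesis and immediate early genes peak at 30 to 40, the replication and mitosis lists drop between 10 to 30 and 30 to 40, and ribosomal proteins drop most above 48.

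Genes lowest in the middle had smaller deficits. Among the largest were those of Paip1, Zmym4, Uhrf2, Afdn, Pex19, Cpe and Abcd2. Cpe, a peptide-processing enzyme, had means of 7.14, 5.36, 8.19 and 9.78 at 0 to 10, 10 to 30, 30 to 40 and above 48.

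Ages were then compared within an interval, wherever both had at least 5 cells there. P7 and P3 shared the first 3 intervals. In the mean over these, with the same sign in each, 354 genes (8.24%) were at least 1 log2 unit higher at P7 and 336 (7.82%) at least 1 lower, and the median over all genes was 0.02. With 1 sample per age these are descriptions of 22 P7 and 52 P3 cells. Insig1, which holds back cholesterol synthesis when sterols are ample, was higher by 3.12, with means at P7 and P3 of 4.56 and 0.59 at 0 to 10, 6.12 and 2.12 at 10 to 30, and 5.54 and 4.15 at 30 to 40. Fdps, a synthase of the same pathway, was higher by 3.11. Of the 14 cholesterol synthesis genes 5 were higher and 1 lower, with a median difference of 1.12. Tnfrsf19, a receptor of the tumour necrosis factor family, was lower by 3.94 at P7 (the difference P7 minus P3 was -3.94), with P7 means of 0.00, 3.09 and 3.42 against P3 means of 3.46, 7.06 and 7.80. The other largest differences were in Cox14, Kmt2c, Pitpnc1, Myo10, Tmbim4 and Ssr1, which were higher, and Exosc8, Smu1, Cct7, Matr3, Dkc1, Larp4b and Stx12, which were lower.

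P14 shared only the interval 0 to 10 with the other ages, with 5 cells. At that number 28.3% of genes were at least 1 unit higher and 25.8% lower than in 14 P3 cells, and 24.5% higher and 34.5% lower than in 5 P7 cells, so single genes were not read from these comparisons. Of the 18 replication genes 9 were higher and 2 lower than at P3 (median 1.24), and 12 higher and 2 lower than at P7 (median 2.02). Of the 19 quiescent stem cell markers 7 were higher and 4 lower than at P3 (median 0.59), near the shares over all genes, and of the 32 ribosomal proteins 0 were higher and 2 lower (median -0.17).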

How the data were processed

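Single-cell libraries were made by SMART-Seq2 with Tn5 after sorting, per the labels' protocols. Per the submitters' processing notes cutadapt, RSEM and mm10 were used, without versions. The deposited table is called TPM, but it holds each estimated count that the authors made with RSEM: column totals differ and 81.5% of nonzero values in the ordered cells are whole within 0.005. Clusters and pseudotime are the authors'. The table holds 15704 genes in 189 columns, all mapped to samples by name; dots in gene names were turned back to dashes, and 20 names turned into dates were not restored.

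CPM (count over the column total, per 1000000) was computed from all genes and used as log2(CPM + 1). Genes above 1 CPM in at least 20% of the 109 cells were measured. No count model was fitted, since every gene fed the ordering. Named genes were the 15 highest and 15 lowest by rho, the 4 markers, the 6 earliest and 6 latest steps each way, and the 8 largest middle and age differences. They leave out predicted gene models, genes with under 50% whole values and those of unlike sign between ages; for P14 none were named. A few genes that these rules name are not reported here. The members and lists were chosen with earlier results of these data known. Coordinates are from GENCODE M21 (GRCm38); 15134 gene names (96.4%) matched. Tools were Python 3.11.15, numpy 2.4.6, scipy 1.17.1, pandas 2.3.3 and, for alternative library sizes, edgeR 4.0.16 in R 4.3.3. Shares carry exact (Clopper-Pearson) 95% intervals, and a count of 0 cells was read as allowing 3. Alternatives covered scaling, depth, filters, cells left out, bins and thresholds. No 2 ordered cells had identical values.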

Additional observations from a re-analysis of the deposited data

Results flagged for a closer look

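Apoe was at 0.00 in 1 of the 5 cells at 40 to 48, a P3 cell, while the other 4 lay between 9.24 and 10.99. The gap exceeds the limit of Dixon's test. That limit assumes normal values, while cells without a read are common here and all 4 markers were searched. How often chance passes it in such data is therefore not known.

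A few genes had rank correlations with pseudotime of opposite sign between ages, and these differences were not tested. Vim, an intermediate filament of radial glia, had 0.42 within P3 and -0.39 within P7. Sox5, a transcription factor, had 0.46 within P7 and -0.32 within P14. Marcks, a membrane-associated actin regulator, had 0.33 within P3 and -0.51 within P14, and Prdx5, a mitochondrial peroxidase, had 0.39 within P7 and -0.32 within P14.

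Among cells without a pseudotime, Fam107a was above 1 CPM in 88.9% of the 18 cells of cluster MA (exact 95% interval 65.3 to 98.6%), against 63.2% of the 19 ordered cells of q2 (38.4 to 83.7%).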

How the results depend on the processing

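Of the genes measured 1.72% rose and 6.05% fell. These shares moved by over 1.5 times in these cases: 3.84% fell when the number of detected genes was held; 10.3% fell without P3 cells; 2.98% rose among cells with at least 2000 detected genes; 0.512% rose and 3.80% fell without cluster a1; 2.82% rose and 3.96% fell without q2; 0.675% rose without cells of 3 or more intermediate progenitor markers; and 3.77% rose and 14.1% fell at a rho limit of 0.3, against 0.908% and 2.63% at 0.5. Scaling by other library sizes moved neither share past that. No falling gene had its position past 40 (0 against 88) without P14 cells, since too few cells remain there. Genes lowest in a middle interval were 3.66% in 5 intervals of equal cell number, and with a pseudocount of 10 the highest and lowest were 7.61% and 0.326%, against 18.9% and 1.89%. That pseudocount gave 3.66% higher and 2.68% lower genes at P7 than P3, against 8.24% and 7.82%. Signs turned without a1 (the median of markers: neural stem cell to -0.03, Dbi -0.10, Hopx -0.08, Qk -0.16) and without the progenitor-marked cells (the median of markers: intermediate progenitor to 0.02, Qk 0.00). The cause was not tested. Of the 52 named genes' other values 673 stayed on their side of 0.4, 100 fell short of it and 3 passed it. No paired analysis was possible because no replicate number is shared between ages. Depth limits absence: 13 ordered cells held under 50000 reads.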

Other observations

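The 80 cells without a pseudotime give the same 4 markers in other combinations. In the 15 cells of cluster a2 Pcna had a mean of 9.86 ± 3.02 (SD) and in the 32 of a3 8.63 ± 3.47, both with Fam107a near 0 (0.38 ± 1.47 and 0.66 ± 1.66). In a3 Apoe was above 1 CPM in 20 of 32 cells (62.5%, 43.7 to 78.9%) and Pcna in 29. In the 15 cells of ImA all had Hopx and Apoe, and 9 had Pcna. In the 18 cells of MA Apoe had a mean of 11.16 ± 0.93, Fam107a 7.43 ± 3.61 and Hopx 4.13 ± 3.33.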
